A study of Mus musculus with 5 samples.

Results

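The tricarboxylic acid cycle was read through 9 of its enzyme genes in hearts of mouse embryos. The genes were given by name: citrate synthase (Cs), the alpha and beta subunits of NAD-dependent isocitrate dehydrogenase (Idh3a, Idh3b), Ogdh and Dlst of the oxoglutarate dehydrogenase complex, Suclg1 of succinyl-CoA ligase, Sdha of succinate dehydrogenase, fumarase (Fh1) and mitochondrial malate dehydrogenase (Mdh2). All 9 were found among the 23279 genes named on the array, each with 1 probe set. The study hybridised 2 arrays of hearts with the genotype KO and 3 arrays of hearts with the genotype Control, all at E10.5 and without treatment. Its title points to Lrrfip2 and the response to hypoxia, while the sample labels do not name the deleted gene, the strain, the type of deletion or the genotype of the Control embryos. Nothing says that the samples of a group came from separate embryos, and each may be a pool, so p-values measure only the spread between these samples, which may be technical.

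The cycle runs in the mitochondrial matrix. It oxidises acetyl-CoA from glucose, fatty acids and amino acids to carbon dioxide and passes the electrons to the respiratory chain as NADH and through succinate dehydrogenase, which is also complex II of that chain. Isocitrate dehydrogenase and the oxoglutarate dehydrogenase complex are the cycle's main regulated steps, and the embryonic heart takes up this oxidative metabolism gradually as its mitochondria mature. In cells short of oxygen, the pyruvate dehydrogenase kinases hold carbon back from the cycle.

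Levels are log2 values normalised by the authors with RMA, and differences are KO minus Control on that scale. Since probe sets differ in brightness, a level is compared only between arrays and not between genes. Lrrfip2 itself had levels of 6.36 and 6.22 on the KO arrays, against 7.33, 8.07 and 8.08 on the Control arrays. It was lower on both KO arrays than on any Control array. The labels give only KO or Control, and the position of its probes relative to the deletion is not known.

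The arrays differed in what other tissue they carried. The endoderm list, 15 annotated genes of liver and gut such as Apoa2 and Ttr, had a mean level of 4.40 on KO replicate 1 and 7.75 on KO replicate 2, against 4.35 to 4.40 on the Control arrays. Of its 11 tested genes, 11 had a higher mean in KO and 0 had an unadjusted p under 0.05. On KO replicate 1, 7 of the 11 lay below the Control mean, so their higher KO mean came from KO replicate 2 alone. Apoa2, for example, was at 10.96 on KO replicate 2 against 5.91 on KO replicate 1. Afp, Apob, Apom and Fgb were below the filter level of 4.44 on every array except KO replicate 2. They were tested only because of that array, so the count of 11 does not test the direction. Heart muscle markers were bright on all arrays, as with the myosin light chain genes Myl2 (12.42 on both KO arrays, 12.47 to 12.52 on Control arrays) and Myl4. The median shift of the 16 muscle markers from their Control means was 0.021 on KO replicate 1 and -0.18 on KO replicate 2. Of these 16 genes, 12 were lower in KO, 2 of them at an unadjusted p under 0.05 (5.49% of all 13967 genes tested). Erythroid markers, led by the embryonic globins Hbb-y and Hbb-bh1, averaged 7.73 and 7.89 on the KO arrays, against 8.24, 7.72 and 9.02 on Control replicates 1, 2 and 3. All 9 tested erythroid genes were lower in KO, against 55.4% of all genes tested, and none had an unadjusted p under 0.05. The macrophage list had a mean level of 5.21 on KO replicate 1 and 4.74 on KO replicate 2, against 4.68 to 4.76 on the Control arrays. Its gene Tyrobp was at 7.65 on KO replicate 1 and 5.09 on KO replicate 2, against 4.85 to 5.09 on the Control arrays. On KO replicate 1, 2 of the 7 tested macrophage genes lay below the Control mean. The part of these other cell types in the results below was not tested, and in whole hearts fewer cells of a type and less RNA per cell cannot be told apart.

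As a group, the 9 enzyme genes had lower levels in KO hearts. All 9 fitted differences were negative, from -0.55 for Idh3a to -0.052 for Idh3b, with a median of -0.22. Among the 13967 genes tested, 55.4% had a negative difference and the median was -0.015. In limma, fitted across all tested genes with Benjamini-Hochberg adjustment, 0 of the 9 had an adjusted p under 0.05, as did 0% of all genes. At an unadjusted p under 0.05, 5 of the 9 were lower and 0 higher, against 5.49% lower and 3.29% higher among all genes tested. For 6 of the 9 both KO arrays lay below all 3 Control arrays, a pattern seen in 13.1% of all genes tested. The opposite pattern, with both KO arrays above all Controls, held for 0 of the 9 and for 8.18% of genes. The 9 genes were chosen with earlier results of these data known. They were read on the same 5 arrays and are not independent, so these counts only describe the listed genes.

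**Figure D1:**
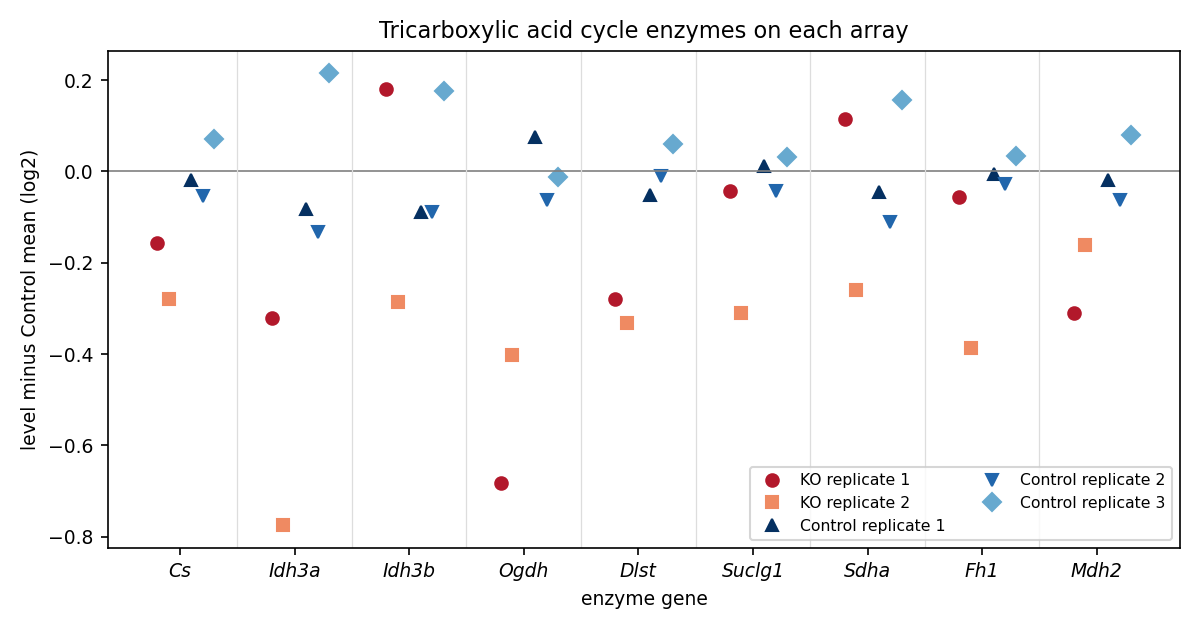
Level of each of the 9 enzyme genes on each array minus that gene's Control mean (log2), with the 2 KO arrays left of the 3 Control arrays. KO replicate 2 lies below every Control array for all 9 genes, while KO replicate 1 does so for 6 and sits above the Control mean for Idh3b and Sdha.

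The group was not equally low on both KO arrays. On KO replicate 2 all 9 genes lay below the lowest Control array, with a median shift of -0.31 from the Control mean. On KO replicate 1 the median shift was -0.16, 7 of 9 lay below the Control mean and 6 below the lowest Control array. KO replicate 2 was the array with endoderm transcripts and lower muscle markers. With the muscle marker shift of each array taken off, the median shift was -0.18 on KO replicate 1 and -0.13 on KO replicate 2, and 7 and 8 of the 9 lay below the Control mean. Reading the KO arrays one at a time was chosen after seeing the data.

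The oxoglutarate dehydrogenase complex, which turns oxoglutarate into succinyl-CoA, held the enzyme genes with the smallest p-values. Ogdh encodes its oxoglutarate-decarboxylating component, whose flux calcium can raise. Its level was 8.68 and 8.95 on KO replicates 1 and 2, against 9.43, 9.29 and 9.34 on Control replicates 1, 2 and 3. Both KO arrays were below all Control arrays, with KO replicate 1 the lowest. The difference was -0.54 ± 0.105 (SE; n = 2 KO and 3 Control arrays), or 31.3% below Control, and limma gave an unadjusted p of 0.00648 and an adjusted p of 0.364. Dlst encodes the lipoate-bearing succinyltransferase core of the same complex. Its levels were 9.11 and 9.06 on the KO arrays, against 9.34, 9.38 and 9.45 on the Control arrays. The KO values were close together and below all Control values. This gave a difference of -0.31 ± 0.050 (SE), or 19.1% below Control, and limma gave an unadjusted p of 0.00351 and an adjusted p of 0.355. The third component, Dld, is the lipoamide dehydrogenase shared with the pyruvate dehydrogenase complex. It had 9.86 and 9.49 on the KO arrays, against 9.83, 9.82 and 9.97 on the Control arrays. Only KO replicate 2 was outside the Control range, and the difference of -0.20 had a 95% interval of -0.57 to 0.17. Ogdhl, a related dehydrogenase gene, had a difference of 0.020 with an interval of -0.15 to 0.19.

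Leaving out any 1 of the 5 arrays kept Ogdh between -0.68 and -0.40 and Dlst between -0.33 and -0.28, each at an unadjusted p under 0.05 in all 5 fits. With arrays centred on the muscle markers Dlst was at -0.23 with an unadjusted p of 0.0654 in limma, no longer under 0.05. None of the other enzyme genes had that in all 5: it held in 2 fits for Cs and for Mdh2, in 1 for Idh3a, Suclg1 and Fh1, and in 0 for Sdha and Idh3b.

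**Figure D2:**
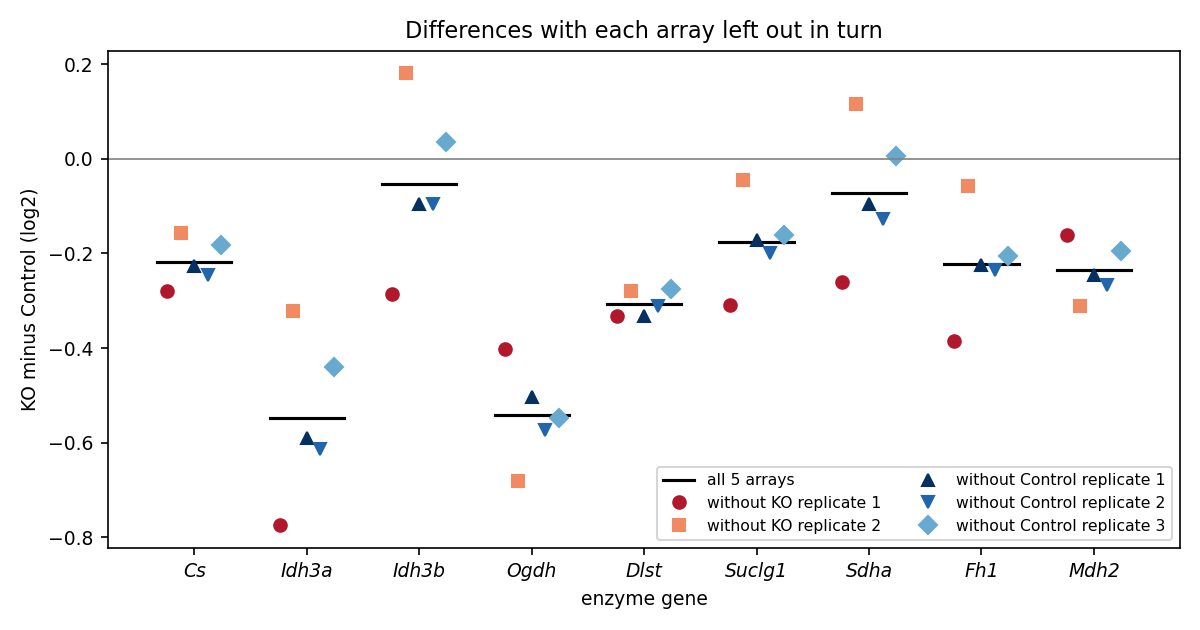
Difference KO minus Control (log2) for each enzyme gene with all 5 arrays (black line) and with each array left out in turn (points, coloured by the array left out). Ogdh and Dlst lie at or below -0.2758 in every fit, while Idh3b and Sdha are above 0 without KO replicate 2 and without Control replicate 3.

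The sequences before the start sites of Ogdh and Dlst, the genes with the smallest p, are shown beside those of Idh3b and Sdha, the genes with the smallest differences. Each is the 250 bases before the most upstream RefSeq start (GRCm38.p6), 5′ to 3′ on the gene's own strand. Capitals mark matches on either strand to the letters ACGTG (core of the hypoxia response element), TGCGCA (core of the NRF1 motif), CCGGAAG (an ETS motif), AAGGTCA (the site of oestrogen-related receptors) and CCAAT. No matches overlapped in these 4 windows.
Ogdh, chr11:6291347-6291596, plus strand: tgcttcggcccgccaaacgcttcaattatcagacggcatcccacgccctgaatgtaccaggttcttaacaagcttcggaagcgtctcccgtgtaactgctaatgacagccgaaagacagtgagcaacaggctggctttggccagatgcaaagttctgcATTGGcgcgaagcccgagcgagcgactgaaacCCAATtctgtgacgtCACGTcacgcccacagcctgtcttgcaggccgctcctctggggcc
Dlst, chr12:85110583-85110832, plus strand: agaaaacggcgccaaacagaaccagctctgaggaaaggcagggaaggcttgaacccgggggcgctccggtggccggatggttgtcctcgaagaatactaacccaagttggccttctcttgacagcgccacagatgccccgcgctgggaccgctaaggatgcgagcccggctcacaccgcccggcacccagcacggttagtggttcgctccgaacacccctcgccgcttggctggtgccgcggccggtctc
Idh3b, chr2:130284452-130284701, minus strand: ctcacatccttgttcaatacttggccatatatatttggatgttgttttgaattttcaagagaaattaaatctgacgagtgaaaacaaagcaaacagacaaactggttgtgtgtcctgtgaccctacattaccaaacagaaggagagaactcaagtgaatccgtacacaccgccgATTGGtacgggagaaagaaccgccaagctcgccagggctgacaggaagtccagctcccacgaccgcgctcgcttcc
Sdha, chr13:74350241-74350490, minus strand: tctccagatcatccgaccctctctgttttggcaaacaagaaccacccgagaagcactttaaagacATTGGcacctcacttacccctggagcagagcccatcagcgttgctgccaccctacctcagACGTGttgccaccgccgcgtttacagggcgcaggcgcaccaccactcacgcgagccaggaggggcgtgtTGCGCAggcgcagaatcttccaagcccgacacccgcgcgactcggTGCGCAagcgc

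RefSeq windows were found for 8 of the 9 enzyme genes. Among these 8, the hypoxia core was present in 2 (Ogdh and Sdha), against 21.5% of the 10835 windows of tested genes. CCAAT was present in 5 of 8, against 36.2%, and the NRF1 core in 1 (Sdha, where it occurs 2 times), against 11.2%. The ETS letters, found in 12.9% of windows, and the receptor site, found in 2.61%, were in 0 of the 8. Thus Ogdh, with a lower level in KO, and Sdha, with overlapping groups, both carried the hypoxia core, and Dlst carried none of the 5 motifs. These matches describe letters in a window only.

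At the isocitrate step, Idh3a had a lower level in KO hearts without overlap, while the KO arrays did not lie on 1 side of the Controls for the other subunits of the enzyme, and none passed the adjusted threshold. NAD-dependent isocitrate dehydrogenase is built from catalytic alpha subunits (Idh3a) with beta (Idh3b) and gamma (Idh3g) subunits, of which gamma is regulatory. Idh3a had levels of 8.45 and 7.995 on the KO arrays, against 8.69, 8.64 and 8.99 on the Control arrays. Both KO arrays lay below the Controls, and they differed from each other by more than any 2 Control arrays did. The difference was -0.55 ± 0.19 (SE), with an adjusted p of 0.555 and an unadjusted p of 0.0451 in limma and a 95% interval of -1.08 to -0.019. Idh3a lies on chromosome 9, as does Lrrfip2. So do other genes named here, among them Sdhd, Me1 and Pccb, which were lower in KO, and Cx3cr1, which was higher. The part of this position was not tested. Idh3b, on chromosome 2, had 10.49 and 10.02 on the KO arrays, against 10.22, 10.22 and 10.49 on the Control arrays. KO replicate 1 lay just above the highest Control array and KO replicate 2 below the lowest, and the difference of -0.052 had an interval of -0.55 to 0.45. Idh3g had 10.36 and 10.24 on the KO arrays, against 10.35, 10.35 and 10.19 on the Control arrays, a difference of 0.0065 with an interval of -0.21 to 0.22.

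Within each group Idh3a and Idh3b were high and low on the same arrays, at a different offset in KO and in Control hearts. The log2 level of Idh3a minus that of Idh3b was -2.04 on KO replicate 1 and -2.03 on KO replicate 2, against -1.53, -1.58 and -1.50 on the Control arrays. Its mean was -2.03 ± 0.0093 in KO and -1.54 ± 0.042 in Control hearts (SD, n = 2 and 3), and the group difference of -0.50 exceeds the spread within either group. Without KO replicate 1 the difference was -0.49, and without KO replicate 2 it was -0.50. An exact two-sided permutation test gave p = 0.1, the smallest that 2 arrays against 3 can give. In total 15 pairs of subunits within 4 complexes were compared, a measure chosen after seeing the data, and the Benjamini-Hochberg adjusted p of this pair was 0.375. The groups did not overlap for 5 of the 15 pairs, which share subunits and are not independent. Among single genes tested, 13.1% had no overlap with KO lower and 8.18% with KO higher. The share among differences between 2 genes was not counted and may be unlike that of single genes. Besides Idh3a against Idh3b, the pairs without overlap were Idh3a against Idh3g (-0.55), Sucla2 against Suclg2 (-0.30), Suclg1 against Suclg2 (-0.25) and Sdhb against Sdhc (-0.16).

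**Figure D3:**
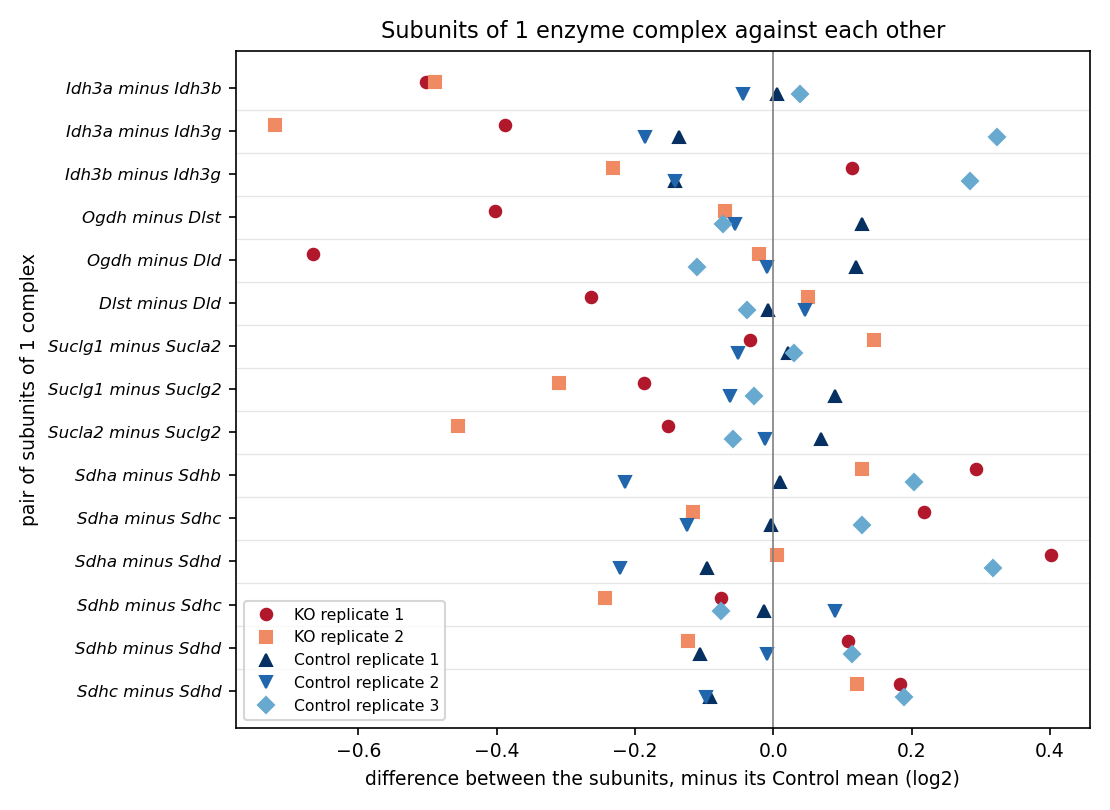
Difference in log2 level between 2 subunits of the same complex on each array, minus the Control mean of that difference, with KO arrays drawn above Control arrays in each row. For Idh3a minus Idh3b the KO arrays nearly coincide, near -0.50, apart from the 3 Control arrays around 0.

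Citrate synthase and malate dehydrogenase, which open and close the cycle, showed smaller differences. Cs, which joins acetyl-CoA to oxaloacetate, had levels of 9.97 and 9.85 on the KO arrays, against 10.11, 10.07 and 10.20 on the Control arrays. The groups did not overlap, and the difference of -0.22 ± 0.064 (SE) corresponds to a 14.0% lower level (adjusted p = 0.504 and unadjusted p = 0.027, limma). Mdh2, which regenerates oxaloacetate, had 11.00 and 11.15 on the KO arrays, against 11.29, 11.24 and 11.39 on the Control arrays. It was the only enzyme gene besides Ogdh with its lower KO value on replicate 1. The difference was -0.24 ± 0.074 (SE), a 15.1% lower level (adjusted p = 0.522 and unadjusted p = 0.0322, limma).

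Between succinyl-CoA and malate, the low value came mostly from KO replicate 2. Suclg1, the alpha subunit shared by both forms of succinyl-CoA ligase, had 9.16 and 8.90 on the KO arrays, against 9.22, 9.16 and 9.24 on the Control arrays. KO replicate 1 had the same value as Control replicate 2, and the difference of -0.18 had an interval of -0.44 to 0.083. Of its partners, the ATP-forming beta subunit Sucla2 was at -0.23 (interval -0.64 to 0.17) and the GTP-forming beta subunit Suclg2 at 0.072 (-0.12 to 0.27). Sdha, the flavoprotein subunit of succinate dehydrogenase, had 10.38 and 10.002 on the KO arrays, against 10.22, 10.15 and 10.42 on the Control arrays. KO replicate 1 lay within the Control range and KO replicate 2 below it, and the difference of -0.072 had an interval of -0.49 to 0.35. Fh1, which hydrates fumarate, had 9.13 and 8.80 on the KO arrays, against 9.18, 9.16 and 9.22 on the Control arrays. Both were below the Controls, KO replicate 1 by little, for a difference of -0.22 with an interval of -0.53 to 0.087. For these 3 genes the unadjusted p in limma was 0.132, 0.662 and 0.118.

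The other succinate dehydrogenase subunits were lower with smaller standard errors than Sdha. The iron-sulphur subunit gene Sdhb had 10.09 and 9.88 on the KO arrays, against 10.21, 10.37 and 10.22 on the Control arrays. The membrane anchor genes Sdhc (9.81 and 9.77 on KO arrays, against 9.87, 9.93 and 9.94 on Control arrays) and Sdhd (8.71 and 8.73 on KO arrays, against 9.05, 9.11 and 8.83 on Control arrays) had both KO arrays below all Control arrays too. The differences were -0.28 ± 0.094 for Sdhb, -0.12 ± 0.041 for Sdhc and -0.28 ± 0.097 for Sdhd (SE, against 0.15 for Sdha), each at an unadjusted p under 0.05 in limma (0.0389, 0.0388 and 0.0464) and none past the adjusted threshold. Over the 8 annotated further subunits of the cycle, 5 were lower and 3 higher, with a median of -0.16. The 3 at an unadjusted p under 0.05 were these subunits of succinate dehydrogenase, and the same 3 had no overlap. Among all genes tested, 5.49% were lower at such a p, 13.1% were lower with no overlap and 55.4% had a negative difference. Their median shift was -0.013 on KO replicate 1 and -0.20 on KO replicate 2, so without KO replicate 2 the median difference was -0.013.

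**Figure D4:**
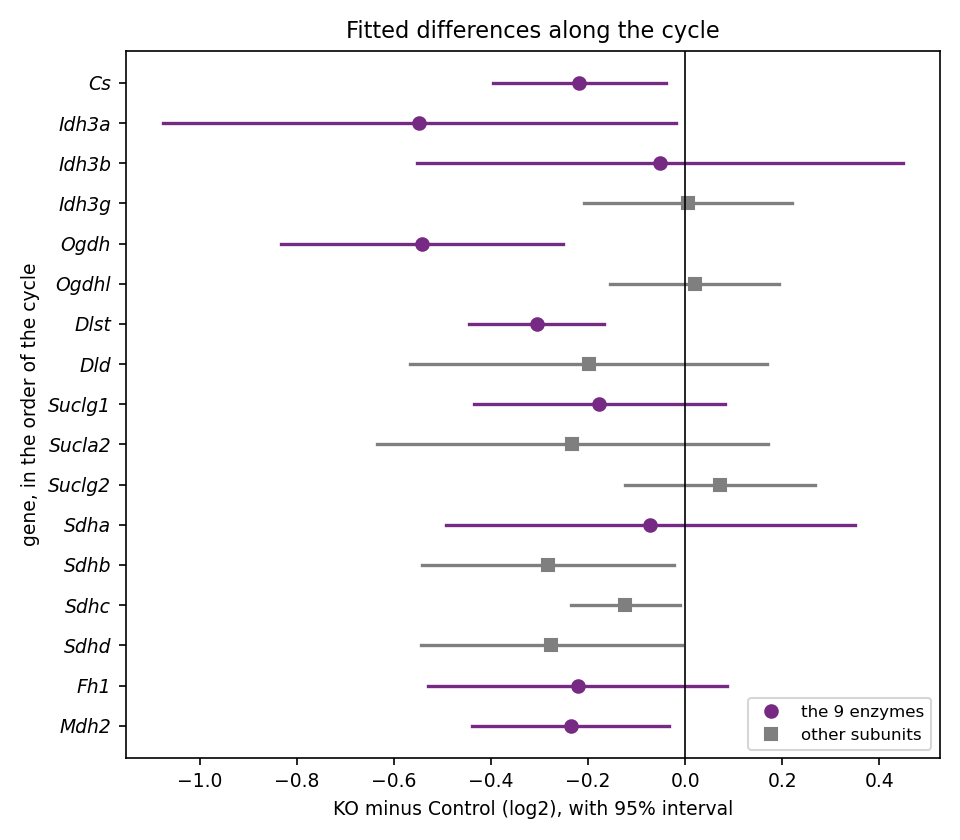
Fitted difference KO minus Control (log2) with its 95% interval from limma for 17 subunit genes in the order of the cycle. The intervals of Cs, Idh3a, Ogdh, Dlst and Mdh2 among the 9 enzyme genes (circles), and of Sdhb, Sdhc and Sdhd among the other subunits (squares), lie below 0.

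Pyruvate dehydrogenase, which makes the acetyl-CoA that enters the cycle, had 2 of 11 genes lower and 1 higher at an unadjusted p under 0.05, against 5.49% and 3.29% of all genes tested, with a median of -0.11. Pdhx, which holds the lipoamide dehydrogenase on that complex, had 7.17 and 7.14 on the KO arrays, against 7.62, 7.54 and 7.68 on the Control arrays. Its difference was -0.46 ± 0.054 (SE), with the unadjusted p of 0.00104 ranking 41st among all genes tested. The kinase gene Pdk1, a target of the hypoxia-inducible factors, was at 0.78 and the kinase gene Pdk2 at -0.24 (unadjusted p = 0.00484 and 0.00404, limma). The catalytic subunit gene Pdha1 was at -0.24 with an unadjusted p of 0.14. All 12 hypoxia target genes on the list used here, Pdk1 among them, were higher in KO, 11 of them at an unadjusted p under 0.05 (3.29% of all genes tested), with a median of 1.24. That list was chosen with earlier results of these data known, so the count only describes the listed genes.

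Genes that assemble the cycle's enzymes or supply their cofactors had 9 of 11 lower, against 55.4% of all genes tested, with a median of -0.19. At an unadjusted p under 0.05, 2 of the 11 were lower, against 5.49% of all genes tested. Bola3, which helps place the iron-sulphur clusters needed to make lipoate, had 6.89 and 7.30 on the KO arrays, against 7.90, 7.95 and 7.79 on the Control arrays. Its difference was -0.78 ± 0.15 (SE; unadjusted p = 0.00572, limma), and the succinate dehydrogenase assembly factor Sdhaf2 (-0.19) was the other gene at an unadjusted p under 0.05. Glrx5 (-0.68) and Sdhaf4 (-0.46) had the next smallest p, 0.0679 and 0.0863. Glrx5 was highest, at 9.79, on Control replicate 3, the array with the highest erythroid level.

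Enzymes around the cycle did not move one way. Of 9 tested isozymes and side enzymes, 5 were lower and 4 higher, with a median of -0.024, while 55.4% of all genes tested were lower. The cytosolic malic enzyme gene Me1 was lower (-0.44, unadjusted p = 0.0129, limma) and the mitochondrial phosphoenolpyruvate carboxykinase gene Pck2 higher (0.69, unadjusted p = 0.0181). The NADP-dependent mitochondrial Idh2 was at -0.17 and the cytosolic Mdh1 at -0.28, with unadjusted p of 0.0679 and 0.0704. Among 8 genes that bring in carbon from amino acids, propionate and ketone bodies, 6 were lower with a median of -0.11. Pccb (-0.18) was the only one at an unadjusted p under 0.05 (5.49% of all genes tested were lower at such a p), ahead of Mcee (-0.16), Got1 (-0.23) and Pcca (-0.19). Of 5 annotated carriers, 4 were lower with a median of -0.24. The aspartate-glutamate carriers Slc25a13 (-0.24, unadjusted p = 0.043) and Slc25a12 (-0.45, 0.0579) led them, before Slc25a1 (0.28) and Slc25a10 (-0.26).

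Regulators of mitochondrial genes had 5 of 8 tested members lower, a median of -0.062 and 0 at an unadjusted p under 0.05. The 4 with the smallest p were the receptor genes Esrrg (-0.42) and Esrra (-0.098), the factor Nrf1 (-0.12) and the coactivator Pprc1 (-0.46). The coactivator Ppargc1a, named after its values were seen, had 9.08 and 8.39 on the KO arrays, against 8.77, 8.77 and 8.75 on the Control arrays, so the KO arrays lay on opposite sides of the Controls.

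**Figure D5:**
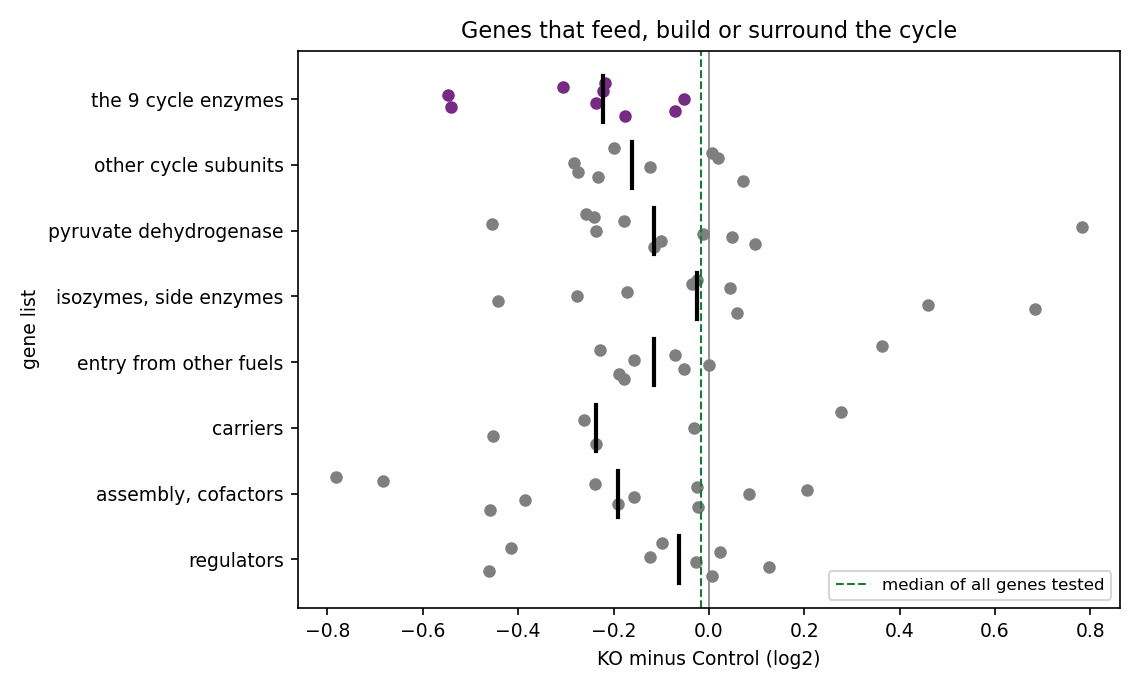
Fitted differences KO minus Control (log2) of the genes in 8 lists, each point 1 tested gene, with the black bar at the list's median and the dashed line at the median of all genes tested, -0.015. The 9 cycle enzymes lie between -0.55 and -0.052, while the other lists include genes on both sides of 0.

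The genes outside the 9 whose profile over the 5 arrays was nearest to the mean profile of the enzyme genes were Usp2, Nedd1, Rnf11, Kif13a and Kif26b. Likeness was the root mean square difference of the shifts from the Control mean, 0.015 to 0.034 log2 units over these 5 arrays. The mean profile itself was -0.17 and -0.35 on KO replicates 1 and 2, against -0.025, -0.065 and 0.090 on the Control arrays.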

How the data were processed

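Labelled RNA from 5 hearts or heart pools was hybridised to Affymetrix arrays (20 ng total RNA per sample, per the labels' protocols). The deposited values are log2 levels, made by the authors with Affymetrix Expression Console and RMA, per the submitters' processing notes, with versions and build not given in the sources used here. No scanner values were used, so background was not judged, and precision is limited by how few arrays there are. Of 24479 probe sets, 23281 had 1 gene symbol in the platform annotation. The other 1198 had none or more than 1 and were not used for genes. Current symbols came from RefSeq for 23156. The brightest set stood for a gene. Genes with a mean under the 40th percentile (4.44) were left out, leaving 13967. Array medians were 5.07 to 5.11. Array correlations over all sets were 0.986 to 0.996. Some deposited values are exactly tied between arrays, in 2 of the 9 enzyme genes.

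KO was compared with Control by a two-sided linear model per gene without covariates (limma 3.58.1 under R 4.3.3, functions lmFit and eBayes), tested on simulated data, with Benjamini-Hochberg adjustment over all genes tested and a threshold of 0.05. The enzyme genes and the lists were chosen with earlier results of these data known. Named were all 9 enzymes, all annotated further subunits, the 4 smallest p of each other pathway list, the 2 brightest genes of marker lists and the 5 genes of nearest profile. Other named genes were chosen after their values were seen. Alternatives concerned the filter, variance prior, array weights, scaling, probe sets, covariates and each array left out. Of 11 macrophage markers (7 tested, brightest Cd68 and Cx3cr1), 5 were higher and 2 lower, with the highest list level on KO replicate 1. Not described elsewhere, 12 endothelial markers (11 tested, brightest Cdh5 and Pecam1) had 6 higher and 5 lower. Y-linked genes averaged 2.74 and 2.77 on the KO arrays, against 7.02, 2.72 and 2.99 on the Control arrays. Xist was at 4.41 on Control replicate 1 and between 10.33 and 10.80 on the other arrays. By these transcripts Control replicate 1 differed in sex from the other arrays, so sex was not balanced between the groups. As a covariate, the Y-linked level nearly repeats leaving out Control replicate 1.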

Additional observations from a re-analysis of the deposited data

How the results depend on the processing

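In every alternative run, 0 of the 9 enzyme genes passed the adjusted threshold, also where other genes did: 1011 genes without KO replicate 2, 863 with endoderm transcripts as a covariate, 15 with arrays centred on muscle markers and 9 without KO replicate 1, against 0 with all arrays. The fits without a KO array take the lone KO array to vary like the Controls, and the endoderm level, high only on KO replicate 2, nearly repeats leaving that array out. Cs, Idh3a, Ogdh, Dlst, Suclg1, Fh1 and Mdh2 were lower in KO under all 17 alternatives, with adjusted p between 0.0505 and 0.757 for Ogdh and 0.114 and 0.757 for Dlst. By construction, the filters, variance priors and averaging of probe sets left these fitted differences unchanged, so they do not test the direction. The number of enzyme genes lower at an unadjusted p under 0.05, 5 with all arrays, was 2 with array weights, with centring on muscle markers and with Y-linked transcripts as a covariate, 3 with the endoderm level, and 2 to 6 with an array left out. It was 2 without Control replicate 1 or 3 and 3 without KO replicate 2. The number with no overlap was 6 to 7 with a Control array left out, and the share over all genes was not counted for these fits. With a KO array left out, the remaining KO array lies below all Controls more easily, so that count is not comparable. The median over the 9 was -0.14 with centring on muscle markers and -0.31 to -0.16 with an array left out. The median of the other subunits was -0.082 with centring on muscle markers, -0.012 with the endoderm level and -0.20 to -0.013 with an array left out. Idh3b turned positive with array weights (0.0054), quantile normalization again (0.010), centring on muscle markers (0.027) and the endoderm level (0.18), as did Sdha with the last 2 (0.0074 and 0.12). With an array left out Idh3b ranged from -0.29 to 0.18 and Sdha from -0.26 to 0.12, both positive without KO replicate 2 or Control replicate 3. Centring on muscle markers moved the median of all genes to 0.064. The contrast of Idh3a and Idh3b ranged from -0.54 to -0.48. Filters, variance priors, centring and averaging of probe sets cannot change such a contrast within arrays, so these settings do not test it. The cause of these changes was not tested beyond what each setting removes.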

Other observations

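Some genes near the cycle stood apart on a single KO array, chosen after their values were seen. Pprc1, a coactivator of mitochondrial genes, was at 7.71 on KO replicate 1 and 8.65 on KO replicate 2, against 8.62 to 8.67 on the Control arrays. The mitochondrial dicarboxylate carrier Slc25a10 was at 5.04 on KO replicate 1 and 6.13 on KO replicate 2, against 6.05, 6.05 and 5.44 on the Control arrays. Glutamate dehydrogenase, Glud1, which feeds oxoglutarate into the cycle, was at 9.01 on KO replicate 1 and 9.81 on KO replicate 2, against 9.06, 8.97 and 9.11 on the Control arrays. KO replicate 2 is the array with endoderm transcripts, whose part in the Glud1 level was not tested.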
